A study of Mus musculus with 12 samples.

Results

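Ribosomes are built in the nucleolus, where RNA polymerase I transcribes the repeated ribosomal RNA genes and small nucleolar ribonucleoproteins (snoRNPs) guide the modification of the transcript. Processing complexes then cut the transcript and fold it with ribosomal proteins into the small 40S and the large 60S subunit. Myc, a transcription factor that drives growth, is a known activator of genes at each of these steps, and in the intestinal crypt both Myc and ribosome production are known as features of dividing progenitor cells. The 40 genes described here were chosen by name from this pathway: Myc, 7 genes of RNA polymerase I and its factors, 6 core proteins of snoRNPs, 4 nucleolar chaperones and scaffold proteins, 14 genes of small-subunit processing and 8 of large-subunit assembly. They are 40 of the 55335 entries in the count tables, and all 40 passed the filter on low counts in both comparisons.

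RNA was measured in 12 bulk libraries of mouse small intestinal organoids, 3 per group, after depletion of ribosomal RNA. All 12 came from 1 organoid line, named line26 wild type, Lgr5GFPDTR/+, from a female mouse with an Lgr5 allele that encodes GFP and the diphtheria toxin receptor. The RANKL group received 3 µM CHIR99021, a GSK3 inhibitor, together with the histone deacetylase inhibitor valproic acid at 1.5 mM for 3 days, then ENR medium for 1 day, then 6 days of 100 ng/mL RANKL, a cytokine known to induce M cells. The ENR control group is labelled as 6 days in ENR, a crypt growth medium with EGF, Noggin and R-spondin. The names of its samples begin with CVENR, a prefix that no label explains, so that an effect of CHIR99021 and valproic acid cannot be told apart from that of RANKL. RANKL+CSRM617 organoids had the RANKL treatment plus 40 µM of CSRM617, a known small-molecule inhibitor of ONECUT2, a transcription factor. The RANKL II group is a separate set of RANKL organoids that was deposited with it. Replicates were independent differentiation experiments per the series design, not separate animals.

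Libraries held 6351155 to 7719157 counts in RANKL, 5795541 to 7577492 in ENR control, 10225102 to 14041947 in RANKL+CSRM617 and 8669153 to 11241811 in RANKL II, and the lowest count of any of the 40 genes in any library was 64. Levels are given as CPM, counts scaled to a common library size with TMM factors, and changes as log2 fold changes, also where a change is given by its value alone. Changes were tested by edgeR's quasi-likelihood test with Benjamini-Hochberg adjustment over all genes, and a gene was called higher or lower at an adjusted p under 0.05. The biological coefficient of variation, the spread between replicates that this test estimates, was 8.29% in the RANKL comparison and 2.87% in the CSRM617 comparison. ENR control replicate 2 stood apart from the other controls. The ribosomal RNA loci Gm26917 and Gm42418 took 21.9% of its counts, against 31.0% and 35.5% in replicates 1 and 3. A slope on transcript GC content was fitted to each library's deviation from the mean log2 level of all libraries in the comparison. It was 0.00117 log2 per percent GC in ENR control replicate 2, and 0.0215 and 0.0262 in replicates 1 and 3. In the RANKL libraries it was -0.0134 to -0.0191. The ribosomal RNA loci took 10.1% ± 0.536 of the counts in RANKL and 29.5% ± 6.96 in ENR control, and 15.6% ± 0.273 in RANKL+CSRM617 and 6.60% ± 0.143 in RANKL II (SD, n = 3 each).

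The known binding sequence of Myc with its partner MAX is the E-box CACGTG, and its occurrence in the promoters of these genes was counted as a description. RefSeq promoter windows of GRCm38.p6, which run from 250 bases before to 50 bases after a start site, were matched for 34 of the 40 genes. None was matched for Myc, Tcof1, Fbl, Npm1, Rrp12 and Bop1. CACGTG, which reads the same on both strands, was found in the windows of 8 of these 34 genes (23.5%), against 8.09% of all 27025 genes with a window. Unlike the 40 genes, that larger set was not limited to genes that passed the filter on low counts. The related CACGCG, searched on both strands, was found in 11 of the 34 genes (32.4%), against 10.5% of all genes; a stretch of 6 bases cannot be both motifs. The 8 genes with CACGTG were Rrn3, Tsr1, Ltv1, Imp4, Wdr43, Utp20, Nop2 and Pes1. In 5 of them the motif lies after the start site. The 250 bases before the start site are printed for the other 3, which are all on the plus strand, with CACGTG in capitals: chr16:13780449-13780698 for Rrn3, chr1:34439579-34439828 for Imp4 and chr6:125131633-125131882 for Nop2.
Rrn3: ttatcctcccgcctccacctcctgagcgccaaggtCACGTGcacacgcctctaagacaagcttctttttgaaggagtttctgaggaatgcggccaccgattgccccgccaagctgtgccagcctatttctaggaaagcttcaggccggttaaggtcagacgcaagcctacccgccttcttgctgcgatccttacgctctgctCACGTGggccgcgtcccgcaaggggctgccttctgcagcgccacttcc
Imp4: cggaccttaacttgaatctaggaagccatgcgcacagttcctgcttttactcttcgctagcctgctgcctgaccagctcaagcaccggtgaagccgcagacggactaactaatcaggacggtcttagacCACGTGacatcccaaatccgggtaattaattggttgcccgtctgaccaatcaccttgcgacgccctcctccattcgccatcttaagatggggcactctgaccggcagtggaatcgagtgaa
Nop2: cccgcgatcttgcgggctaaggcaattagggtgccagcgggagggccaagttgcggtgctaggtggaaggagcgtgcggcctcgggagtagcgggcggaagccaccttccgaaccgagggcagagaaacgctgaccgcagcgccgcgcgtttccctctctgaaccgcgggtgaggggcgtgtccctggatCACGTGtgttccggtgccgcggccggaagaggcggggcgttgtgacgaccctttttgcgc
The Rrn3 sequence holds CACGTG at 2 places, of which the first begins 215 bases before the start site. In Imp4 it begins 121 bases and in Nop2 60 bases before the start site. A match shows only that these letters are present.

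The first comparison asked what RANKL treatment changed against ENR medium. RANKL organoids had less RNA of Myc, of the large RNA polymerase I subunits, of the ribosomal DNA factor Ubtf and of a minority of processing factors, while most of the other processing genes did not pass the test. Of the 40 genes 17 were lower and 1 was higher, and 22 were not called. Over all 13570 genes tested, 28.0% were lower and 28.7% were higher. The median log2 change of the 40 genes was -0.17, against 0.0028 over all genes, and the called decreases were 1.17-fold to 1.77-fold. Summed over the 40 genes, the level was 3696 ± 46.3 CPM in RANKL and 4322 ± 103 CPM in ENR control (SD, n = 3 each). In bulk samples, fewer cells of a type and less RNA per cell cannot be told apart.

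**Figure D1:**
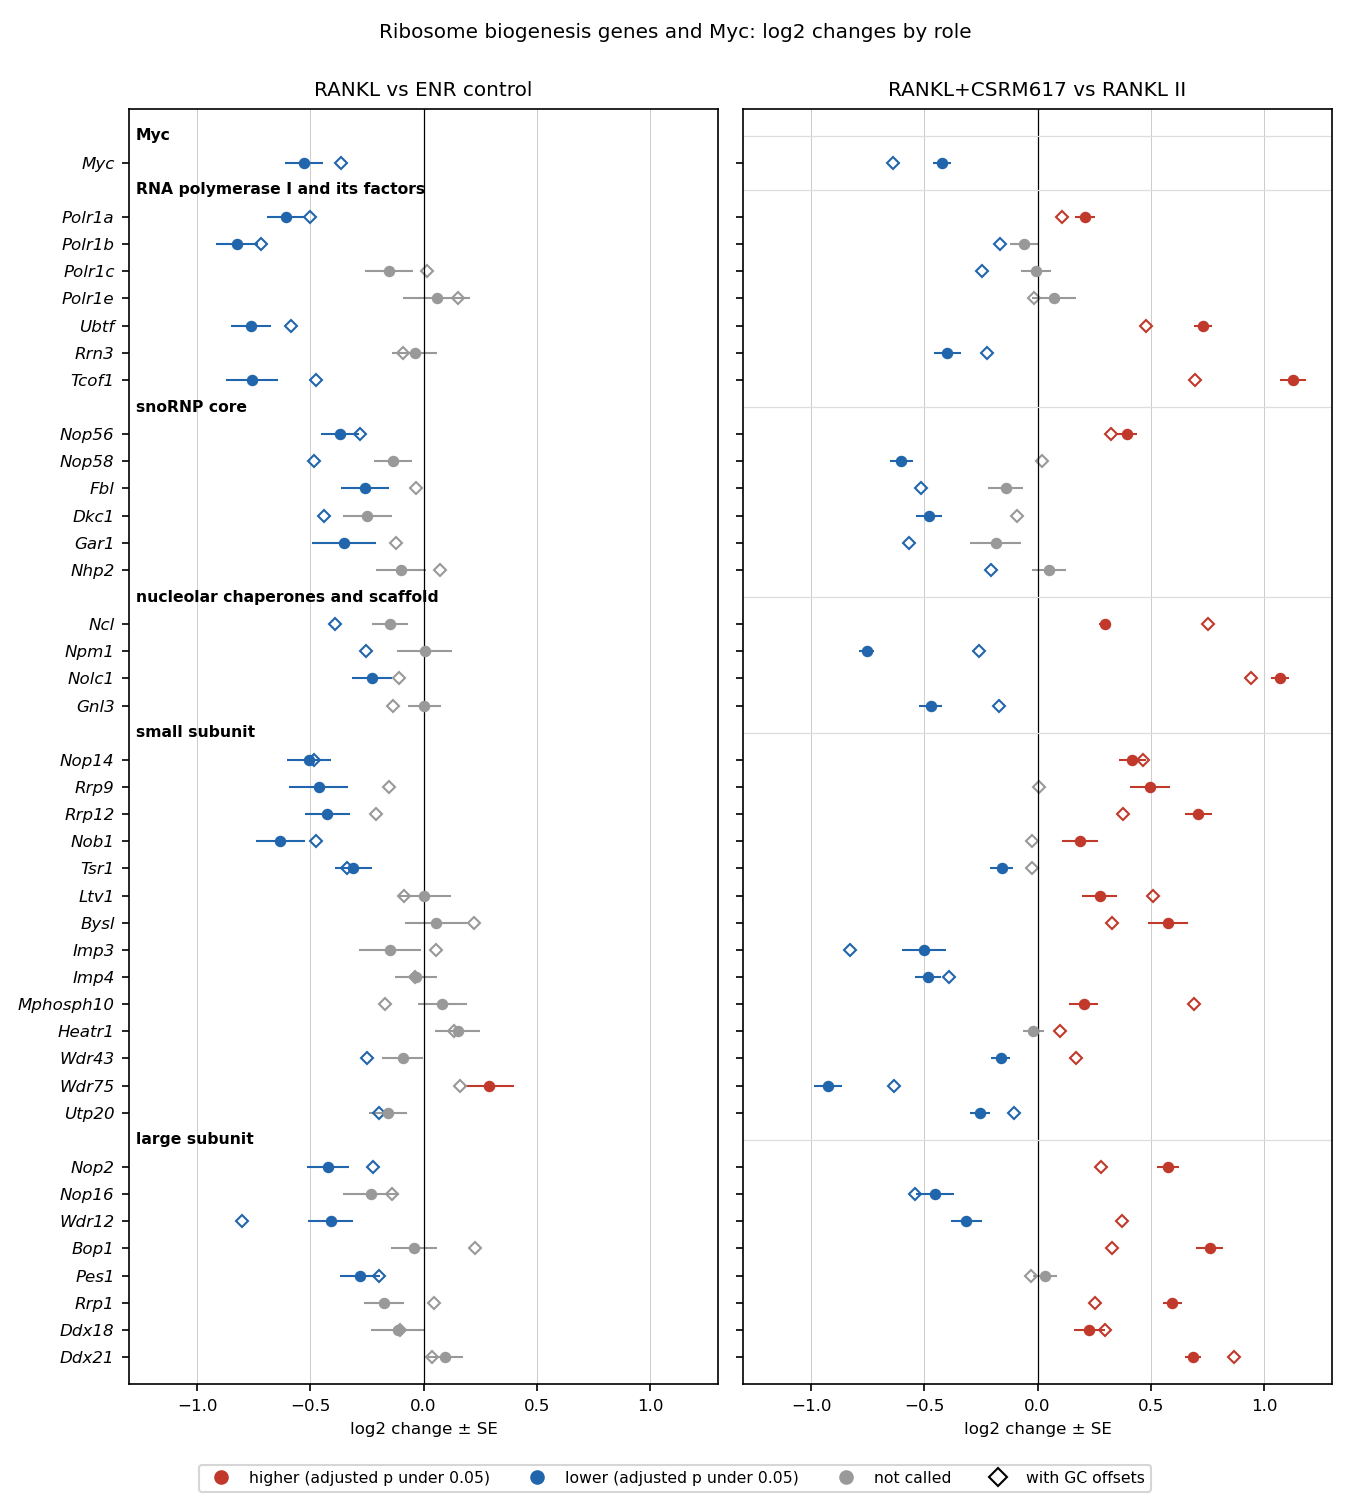
Log2 changes of the 40 genes, grouped by role, in RANKL against ENR control (left) and RANKL+CSRM617 against RANKL II (right); filled circles with bars are the change ± SE from 3 libraries a group, open diamonds the change with offsets for transcript GC content, and colours give the call. Decreases of RNA polymerase I genes lead the left panel, down to -0.82 for Polr1b, and the right panel holds changes of both signs, from -0.93 for Wdr75 to 1.13 for Tcof1.

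Myc (chromosome 15, 61985391 to 61990374, plus strand, GRCm38, as all positions below) had 205, 214 and 220.5 CPM in RANKL, against 323, 280.3 and 319 CPM in ENR control. Every RANKL library lay below every control, and the gene fell by 1.44-fold (log2 change -0.53, SE 0.0818, edgeR adjusted p = 5.18e-05). Per kilobase of the longest coding transcript its level was 91.2 CPM in RANKL and 131.6 CPM in ENR control. In ENR control this was second to Npm1, the highest of the 40 genes on this scale at 293 CPM per kilobase in RANKL and 292 in ENR control. For genes such as Ncl, whose longest annotated transcript is 8202 bases, this scale may understate the level.

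Among the RNA polymerase I genes 4 of 7 were lower and none was higher. Polr1a (chromosome 6, 71909053 to 71984935, plus strand), which encodes the largest subunit of the enzyme, had 92.7, 89.3 and 99.8 CPM in RANKL, against 144, 134 and 152 CPM in ENR control. Polr1b (chromosome 2, 129100995 to 129126594, plus strand), which encodes the second-largest catalytic subunit, had 51.0, 53.1 and 61.2 CPM in RANKL, against 91.0, 98.8 and 103 CPM in ENR control. Neither gene's groups overlapped, and their log2 changes were -0.61 (SE 0.0841, edgeR adjusted p = 1.70e-05) and -0.82 (SE 0.0933, edgeR adjusted p = 2.03e-06). Ubtf (chromosome 11, 102304560 to 102319742, minus strand) encodes UBF, the protein that coats active ribosomal DNA, and had 131, 118 and 113 CPM in RANKL, against 209.8, 188 and 218 CPM in ENR control. Tcof1, which encodes treacle, a nucleolar partner of UBF and RNA polymerase I, had 88.2, 74.3 and 75.0 CPM in RANKL, against 152, 109.7 and 142 CPM in ENR control. Both were lower in every RANKL library, by 1.70-fold for Ubtf and 1.69-fold for Tcof1 (edgeR adjusted p = 2.49e-06 and 3.97e-05).

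The other 3 RNA polymerase I genes did not pass. Rrn3 (chromosome 16, 13780708 to 13814839, plus strand) encodes TIF-IA, which links the polymerase to its promoter, and had 47.7, 53.5 and 46.3 CPM in RANKL, against 49.0, 55.4 and 46.4 CPM in ENR control, 2 ranges that overlap. Its log2 change was -0.040 (SE 0.101, edgeR adjusted p = 0.757). Polr1c, a subunit shared with RNA polymerase III, averaged 34.4 ± 3.30 CPM in RANKL and 38.5 ± 2.24 CPM in ENR control, and Polr1e, a subunit specific to RNA polymerase I, averaged 14.6 ± 1.44 CPM in RANKL and 14.1 ± 1.74 CPM in ENR control (SD, n = 3 each).

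**Figure D2:**
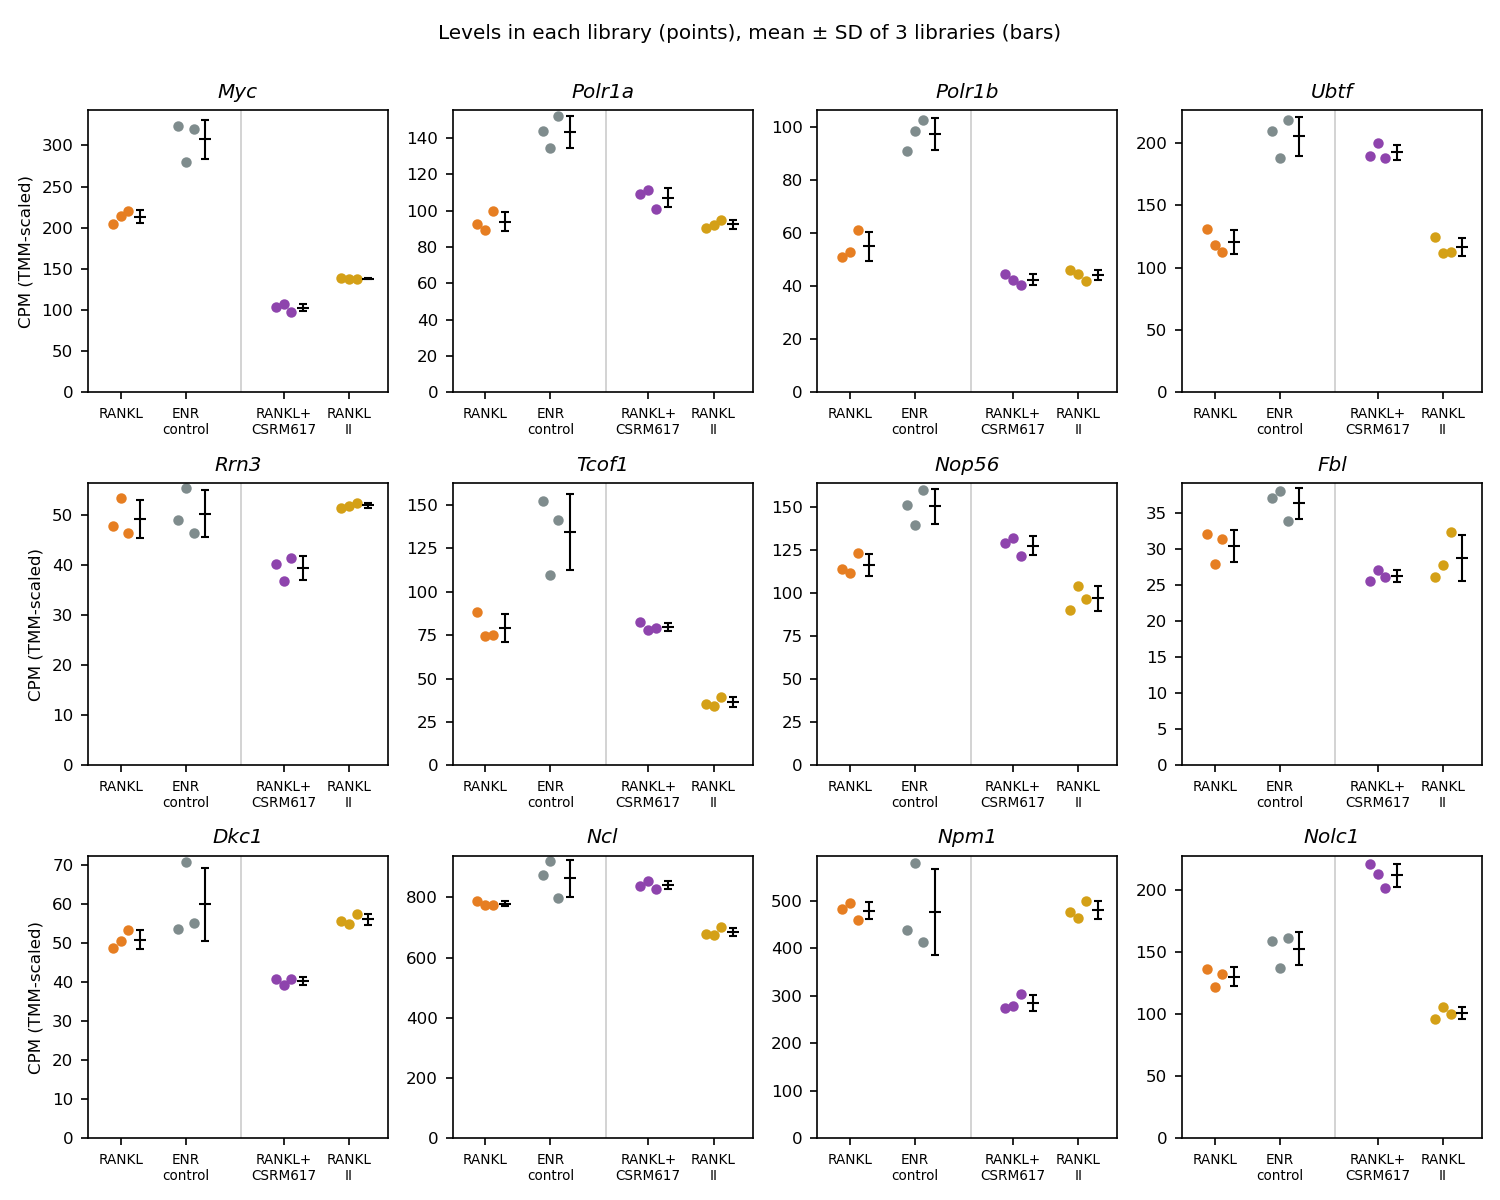
Level of 12 of the genes in each library, in CPM after TMM scaling, with points for libraries and bars for mean ± SD of 3; the grey line parts the 2 comparisons, whose tables were scaled separately. The RANKL points of Myc, Polr1a, Polr1b, Ubtf, Tcof1 and Nop56 all lie below the ENR control points, and the RANKL+CSRM617 points of Ubtf, Tcof1 and Nolc1 all lie above those of RANKL II.

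Among the core snoRNP proteins 3 of 6 were lower and none was higher. Nop56 (chromosome 2, 130274430 to 130279313, plus strand), a scaffold of the box C/D particles that guide 2'-O-methylation, had 114, 112 and 123 CPM in RANKL, against 151, 139.8 and 159.9 CPM in ENR control, and fell by 1.29-fold with no overlap (SE of the log2 change 0.0836, edgeR adjusted p = 0.00147). Fbl (chromosome 7, 28169710 to 28179269, plus strand), the methyltransferase of the same particles, had 32.0, 27.9 and 31.4 CPM in RANKL, against 37.1, 38.0 and 33.8 CPM in ENR control. Its log2 difference of -0.26 was just past the threshold, and the call stood in 4 of 16 alternatives (edgeR adjusted p = 0.0452, and 0.0330 to 0.822 across 16 alternatives). The call was lost without any 1 of RANKL replicates 1 to 3 (-0.30, -0.20 and -0.28) and without ENR control replicate 1 (-0.25) or 2 (-0.23). Gar1, of the H/ACA particles that guide pseudouridylation, gave -0.35 with overlapping groups (edgeR adjusted p = 0.0451, 0.00976 to 0.518 across 16 alternatives) and was not called without RANKL replicate 2 (-0.35) or 3 (-0.28) or ENR control replicate 1 (-0.36) or 2 (-0.21).

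Dkc1 (chromosome X, 75095854 to 75109777, plus strand), the pseudouridine synthase of the H/ACA particles, did not pass. It had 48.7, 50.6 and 53.5 CPM in RANKL, against 53.8, 70.8 and 55.3 CPM in ENR control, a log2 difference of -0.25 (SE 0.108, edgeR adjusted p = 0.0622, 2.36e-04 to 0.307 across 16 alternatives). It was called lower without ENR control replicate 1 (-0.33) or 3 (-0.31). Nop58 of the box C/D particles gave -0.13 and Nhp2 of the H/ACA particles -0.099, neither called.

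Among the nucleolar chaperones and scaffold proteins 1 of 4 was lower and none was higher. Ncl (chromosome 1, 86344719 to 86359400, minus strand), which encodes nucleolin, an RNA-binding protein of early ribosomal RNA processing, had 788, 775 and 776 CPM in RANKL, against 873, 919.8 and 799 CPM in ENR control. The groups did not overlap, yet the log2 difference of -0.15 did not pass (SE 0.0795, edgeR adjusted p = 0.124). Npm1 (chromosome 11, 33152287 to 33163206, minus strand), the nucleolar chaperone nucleophosmin, had 483, 495 and 459 CPM in RANKL, against 438, 579 and 413 CPM in ENR control, where replicate 2 lay above all RANKL libraries and the other controls below. Its log2 change was 0.00525 (edgeR adjusted p = 0.970, 0.00626 to 0.996 across 16 alternatives), and 0.16 without ENR control replicate 2, where it was called higher. Nolc1, a scaffold protein that carries snoRNPs, had 136, 121 and 132 CPM in RANKL, against 159, 137 and 162 CPM in ENR control, a log2 difference of -0.23 (edgeR adjusted p = 0.0367, 4.11e-04 to 0.247 across 16 alternatives). That call was lost without RANKL replicate 2 (-0.18) or 3 (-0.24) or ENR control replicate 1 (-0.20) or 3 (-0.19). Gnl3, which encodes nucleostemin, gave 0.00313 and was not called.

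In the small-subunit group 5 of 14 genes were lower and 1 was higher. Nob1, the endonuclease that makes the last cut of the 18S rRNA, had 23.3, 23.8 and 26.3 CPM in RANKL, against 37.1, 40.4 and 35.6 CPM in ENR control, and fell by 1.55-fold (edgeR adjusted p = 1.12e-04). Nop14, a part of the small-subunit processome, gave -0.51, Rrp9, a protein of the U3 snoRNP, -0.46, Rrp12, a factor of subunit export, -0.42, and Tsr1, a factor of late 40S maturation, -0.31, all 4 without overlap between groups. Wdr75, a processome protein, was the 1 gene called higher, with 47.3, 46.9 and 48.2 CPM in RANKL, against 33.8, 45.2 and 36.3 CPM in ENR control. Its log2 change was 0.29 (edgeR adjusted p = 0.0353, 5.68e-04 to 0.192 across 16 alternatives), and it was not called without RANKL replicate 1 (0.29), 2 (0.30) or 3 (0.28), ENR control replicate 1 (0.20) or 3 (0.24), or by DESeq2 (0.30). The other 8 of the group, Ltv1, Bysl, Imp3, Imp4, Mphosph10, Heatr1, Wdr43 and Utp20, gave log2 changes from -0.16 to 0.15, none called. Heatr1, a processome protein, was called higher without ENR control replicate 2 (0.24).

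In the large-subunit group 3 of 8 genes were lower. Nop2, a methyltransferase of the large rRNA, had 61.7, 58.8 and 62.7 CPM in RANKL, against 87.7, 72.5 and 85.9 CPM in ENR control, a log2 difference of -0.42 (edgeR adjusted p = 0.00117). The PeBoW complex of 60S assembly was split. Its members Wdr12 and Pes1 gave -0.41 and -0.28, both called lower, and Bop1 gave -0.042, not called. The Pes1 call was lost without ENR control replicate 1 (-0.25) and by DESeq2 (-0.28). Rrp1 gave -0.17, Nop16 -0.23 and the helicases Ddx18 and Ddx21 -0.11 and 0.096, none called. Rrp1 was called lower without ENR control replicate 2 (-0.25) and Nop16 without ENR control replicate 3 (-0.32).

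Transcript GC content moved with these changes, with a Spearman correlation of -0.45 across the 40 genes and -0.32 across 13383 genes, which share the same libraries. With offsets that remove each library's trend on GC content, none of the 40 genes was higher and 18 were lower, against 27.4% higher and 25.9% lower over all genes. The median of the 40 was then -0.16. The Spearman correlation with GC content was then -0.0016 over all genes, but 0.25 across the 40 genes, of opposite sign to that without offsets. Of the 17 lower calls 12 held with the offsets, and Fbl, Gar1, Nolc1, Rrp9 and Rrp12 did not. Among those that held, the offsets moved the log2 value by over 1.5 times for Tcof1 (-0.48, against -0.76 without them), Nop2 (-0.22, against -0.42 without them) and Wdr12 (-0.80, against -0.41 without them). The offsets added lower calls for Nop58 (-0.48), Dkc1 (-0.44), Ncl (-0.39), Npm1 (-0.25), Wdr43 (-0.25) and Utp20 (-0.20). The transcripts of these added calls are 41.0% to 46.8% GC. The GC content used is that of the longest annotated coding transcript, with 10012 bases for Wdr12, 9507 for Nop58 and 8202 for Ncl. Whether these transcripts were the ones present was not tested, so the offsets may not suit these genes. The call was lower in all 16 alternatives for 11 genes, which were Myc, Polr1a, Polr1b, Ubtf, Tcof1, Nop56, Nop14, Nob1, Tsr1, Nop2 and Wdr12. Without ENR control replicate 2, 3 genes were higher and 16 lower.

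Markers of dividing, stem and differentiated cells differed between the same groups. Of 10 proliferation markers 7 were lower and none higher, with a summed level of 1118 to 1367 CPM in RANKL and 1666 to 1726 CPM in ENR control, and of 6 stem cell markers 4 were lower and 1 higher, at 755 to 1087 CPM in RANKL and 2283 to 2620 CPM in ENR control. The 8 M cell markers, all called higher, summed to 946 to 1034 CPM in RANKL and 58.0 to 63.7 CPM in ENR control, where Gp2 and Sox8 were at 0. Paneth cell markers gave 1 higher and 5 lower of 6, at 373 to 389 CPM in RANKL and 515 to 884 CPM in ENR control. Enterocyte markers gave 4 higher and 3 lower of 7, at 2707 to 3665 CPM in RANKL and 1292 to 1465 CPM in ENR control. Goblet cell markers gave 3 higher and 2 lower of 6, at 1925 to 2777 CPM in RANKL and 1026 to 1078 CPM in ENR control, and 3 of 4 tuft cell markers tested were higher, at 118 to 148 CPM in RANKL and 85.8 to 114 CPM in ENR control. Of 3 enteroendocrine markers tested 1 was lower and none higher, or 1 lower and 1 higher with GC offsets. The list of 6 summed to 30.9 to 34.1 CPM in RANKL and 32.1 to 45.7 CPM in ENR control. Markers of stromal and endothelial cells summed to at most 3.20 CPM in these libraries, with Col1a2, Dcn and Cdh5 at 0. With GC offsets stem cell markers gave 1 higher and 5 lower, proliferation markers none higher and 8 lower, and goblet cell markers 4 higher and 2 lower. The counts of the M cell, Paneth cell, enterocyte and tuft cell lists did not change with offsets. The part of these cell types in the result was not tested.

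The second comparison asked how the inhibitor altered RANKL organoids. Organoids given CSRM617 with RANKL had more RNA of the ribosomal DNA factors Ubtf and Tcof1, of the scaffold gene Nolc1 and of several large-subunit genes than RANKL II organoids, and less of Myc, Npm1, Wdr75, Rrn3 and others. Of the 40 genes 18 were higher, 14 were lower and 8 were not called. Over all 14167 genes tested, 35.2% were higher and 36.2% were lower. The median log2 change of the 40 was 0.041, against -0.016 over all genes, and it was -0.00110 with upper-quartile scaling. Called increases were 1.14-fold to 2.18-fold and called decreases 1.12-fold to 1.90-fold. The summed level of the 40 genes was 3682 ± 57.2 CPM in RANKL+CSRM617 and 3394 ± 33.3 CPM in RANKL II (SD, n = 3 each).

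Transcript GC content moved more strongly here, with the opposite sign. The Spearman correlation with the log2 change was 0.50 across the 40 genes and 0.59 across 13964 genes, and the 40 transcripts ran from 40.4% to 59.8% GC. The 10 genes under 46% GC had a median log2 change of -0.39 and the 11 genes over 54% one of 0.58. With GC offsets the correlation across the 40 genes was -0.079, and 19 were higher and 14 lower with a median of 0.014, against 32.8% higher and 30.3% lower over all genes. Of the main calls 16 of 18 higher and 9 of 14 lower held with the offsets. The values with offsets therefore stand beside the results that follow. For Wdr12, Nop58 and Ncl they rest on the GC content of a long annotated transcript, as in the first comparison.

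**Figure D3:**
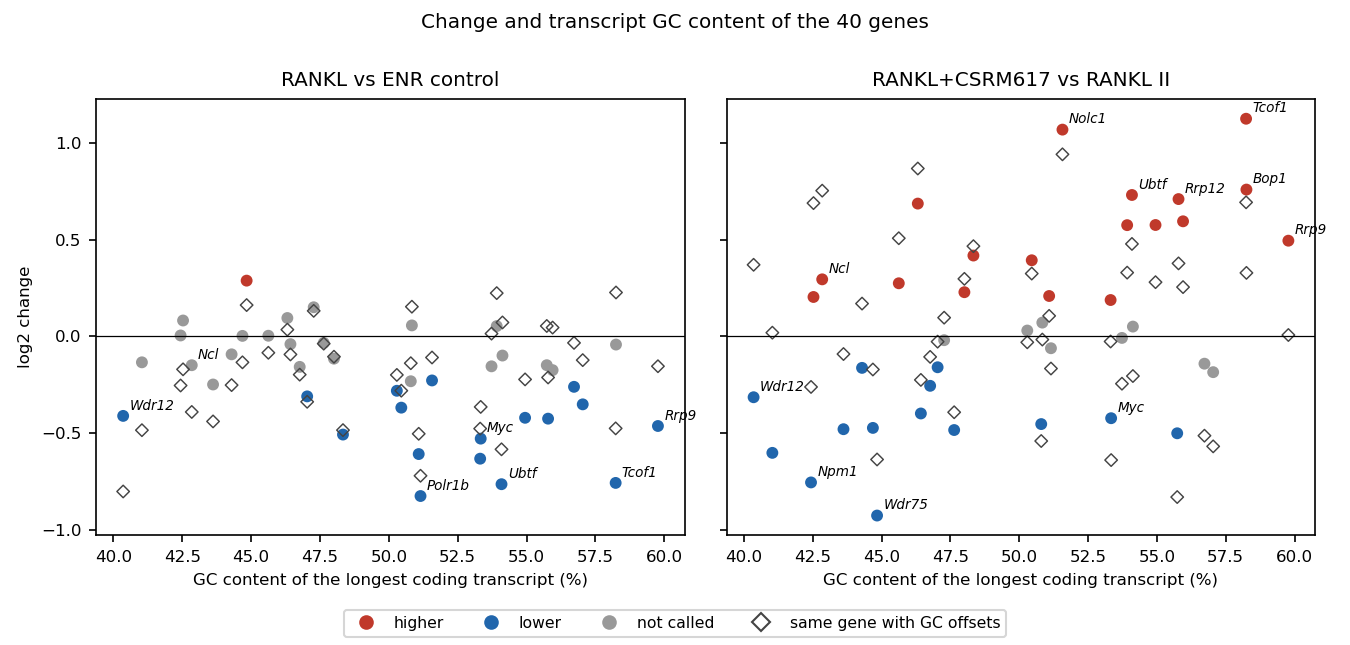
Log2 change of the 40 genes against the GC content of the longest coding transcript, in RANKL against ENR control (left) and RANKL+CSRM617 against RANKL II (right); filled circles are coloured by call and open diamonds give the same gene with GC offsets. The filled points fall with GC content on the left and rise with it on the right, where Wdr12 at 40.4% GC and Rrp9 at 59.8% GC move across or to 0 with the offsets.

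Myc was lower in this comparison too. It had 104, 107 and 97.9 CPM in RANKL+CSRM617, against 139, 138 and 137 CPM in RANKL II, and every treated library lay below. The log2 change was -0.42 (SE 0.0400, edgeR adjusted p = 9.57e-13), and -0.64 with GC offsets.

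Among the RNA polymerase I genes 3 of 7 were higher and 1 was lower. Tcof1 had 82.3, 77.9 and 79.1 CPM in RANKL+CSRM617, against 35.2, 34.1 and 39.6 CPM in RANKL II, and Ubtf had 189.9, 199.8 and 188 CPM in RANKL+CSRM617, against 125, 111 and 113 CPM in RANKL II. Both rose in every library, with log2 differences of 1.13 for Tcof1 (SE 0.0574, edgeR adjusted p = 1.37e-21) and 0.73 for Ubtf (SE 0.0393, edgeR adjusted p = 1.37e-20). With GC offsets these were 0.69 and 0.48, still called. Polr1a had 109, 111 and 101 CPM in RANKL+CSRM617, against 90.2, 92.3 and 95.0 CPM in RANKL II, a log2 difference of 0.21 (edgeR adjusted p = 4.53e-05) that was 0.11 with offsets. Rrn3 had 40.1, 36.8 and 41.4 CPM in RANKL+CSRM617, against 51.4, 51.8 and 52.5 CPM in RANKL II, and fell by 1.32-fold (log2 change -0.40, -0.22 with offsets, edgeR adjusted p = 1.19e-07). Thus the promoter factor Rrn3 and the ribosomal DNA factors Ubtf and Tcof1 were called in opposite directions.

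The other subunits of the enzyme were not called. Polr1b had 44.5, 42.4 and 40.4 CPM in RANKL+CSRM617, against 46.1, 44.6 and 42.0 CPM in RANKL II, with overlapping groups and a log2 difference of -0.061 (SE 0.0611, edgeR adjusted p = 0.377). Polr1c averaged 30.1 ± 3.22 CPM in RANKL+CSRM617 and 30.0 ± 0.949 CPM in RANKL II, and Polr1e averaged 16.2 ± 1.29 CPM in RANKL+CSRM617 and 15.6 ± 1.11 CPM in RANKL II (SD, n = 3 each). GC offsets gave lower calls for Polr1b (-0.17) and Polr1c (-0.24).

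The core snoRNP proteins gave 1 higher and 2 lower of 6, and only the call of Nop56 held with GC offsets. Nop56 had 129, 132 and 121 CPM in RANKL+CSRM617, against 90.0, 104 and 96.8 CPM in RANKL II, a log2 difference of 0.39 (edgeR adjusted p = 2.39e-10) and of 0.33 with offsets. Nop58 had 64.4, 69.4 and 78.2 CPM in RANKL+CSRM617, against 105, 108 and 110.0 CPM in RANKL II, a log2 difference of -0.60 that was 0.020 with offsets and no longer called. Dkc1 had 40.9, 39.3 and 40.8 CPM in RANKL+CSRM617, against 55.7, 54.9 and 57.6 CPM in RANKL II, a log2 difference of -0.48 (edgeR adjusted p = 5.60e-10) that the offsets also ended (-0.091). The 2 transcripts are 41.0% and 43.6% GC, toward the low end of the 40. Fbl had 25.5, 27.1 and 26.1 CPM in RANKL+CSRM617, against 26.1, 27.7 and 32.4 CPM in RANKL II, which at -0.14 did not pass (edgeR adjusted p = 0.0977, 8.70e-12 to 0.742 across 16 alternatives). It was called lower without RANKL II replicate 1 (-0.20) and with GC offsets (-0.51). Gar1 (-0.18) and Nhp2 (0.051) were not called, and were called lower with offsets at -0.57 and -0.20.

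The 4 nucleolar chaperone and scaffold genes were all called, 2 in each direction, and all 4 calls held with GC offsets. Nolc1 had 220.4, 213 and 202 CPM in RANKL+CSRM617, against 96.0, 106 and 100.3 CPM in RANKL II, and rose by 2.10-fold (SE of the log2 change 0.0394, edgeR adjusted p = 1.40e-26). Ncl had 839, 855 and 829.6 CPM in RANKL+CSRM617, against 679, 676 and 700.2 CPM in RANKL II, a log2 difference of 0.30 (edgeR adjusted p = 7.95e-14) and of 0.75 with offsets. Npm1 had 273, 278 and 303 CPM in RANKL+CSRM617, against 476, 465 and 501 CPM in RANKL II, and fell by 1.69-fold (edgeR adjusted p = 1.93e-19), a log2 difference of -0.75 that was -0.26 with offsets. Gnl3 gave -0.47, and -0.17 with offsets. Nucleolin and nucleophosmin, both chaperones of the nucleolus, were thus called in opposite directions.

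The small-subunit group was called in both directions, with 7 higher and 6 lower of 14, or 7 and 4 with GC offsets. Of the U3 snoRNP proteins, Imp3 had 13.7, 12.5 and 13.0 CPM in RANKL+CSRM617, against 16.7, 20.5 and 18.1 CPM in RANKL II, and Imp4 had 41.1, 41.2 and 39.0 CPM in RANKL+CSRM617, against 55.3, 54.3 and 59.3 CPM in RANKL II. Their log2 changes were -0.50 and -0.48, with no overlap between groups, and -0.83 and -0.39 with GC offsets. Mphosph10, which binds both, gave 0.20 with overlapping groups, called higher, and 0.69 with offsets. Rrp9 of the same particle gave 0.50, also called higher, which the offsets brought to 0.00768. Wdr75 had 27.7, 27.2 and 29.0 CPM in RANKL+CSRM617, against 52.2, 54.3 and 53.1 CPM in RANKL II, a fall of 1.90-fold (log2 change -0.93, -0.64 with offsets). This was the largest fall of the 40 genes without offsets, and with them that of Imp3 was the largest. Rrp12 had 66.8, 62.6 and 60.7 CPM in RANKL+CSRM617, against 38.9, 40.4 and 36.9 CPM in RANKL II, a log2 difference of 0.71 that was 0.38 with offsets.

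Of the rest of the small-subunit group, Nop14 (0.42, 0.47 with offsets), Bysl (0.58, 0.33 with offsets) and Ltv1 (0.28, 0.51 with offsets) were called higher in all 16 alternatives, and Utp20 (-0.25, -0.11 with offsets) lower in all 16. Nob1 was called higher at 0.19 (edgeR adjusted p = 0.0304, 0.00940 to 0.801 across 16 alternatives). It stood in 8 of 16 alternatives and was not called without RANKL+CSRM617 replicate 2 (0.18), RANKL II replicate 2 (0.16) or RANKL II replicate 3 (0.15), by DESeq2 (0.19) or with offsets (-0.026). Tsr1 was called lower at -0.16, and not by DESeq2 (-0.15) or with offsets (-0.027). Wdr43 was called lower at -0.16 and higher with offsets at 0.17. Heatr1 was not called at -0.019, and was higher with offsets at 0.097.

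The large-subunit group gave 5 higher and 2 lower of 8. Bop1 of the PeBoW complex had 61.3, 59.2 and 57.1 CPM in RANKL+CSRM617, against 34.5, 37.6 and 33.0 CPM in RANKL II, and rose by 1.69-fold (log2 change 0.76, 0.33 with offsets). Its partner Wdr12 was called lower at -0.31 and, with offsets, higher at 0.37, and Pes1 was not called in either fit (0.031 and -0.030). The RNA helicase Ddx21 had 266, 254 and 237 CPM in RANKL+CSRM617, against 157, 156 and 156 CPM in RANKL II, a log2 difference of 0.69 and of 0.87 with offsets. Nop2 had 92.7, 94.2 and 84.1 CPM in RANKL+CSRM617, against 60.7, 60.2 and 60.6 CPM in RANKL II, a log2 difference of 0.58 (edgeR adjusted p = 6.53e-14) and of 0.28 with offsets. Rrp1 (0.60, 0.26 with offsets) and Ddx18 (0.23, 0.30 with offsets) were also higher, and Nop16 (-0.45, -0.54 with offsets) was lower, each in all 16 alternatives.

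The call stood in all 16 alternatives for 16 genes that were higher and 9 that were lower. Proliferation markers gave 6 higher and 2 lower of 10, with a summed level of 631 to 650 CPM in RANKL+CSRM617 and 406 to 412 CPM in RANKL II. Stem cell markers gave 3 higher and 1 lower of 6, at 276 to 284 CPM in RANKL+CSRM617 and 231 to 240 CPM in RANKL II. M cell markers gave 4 higher and 4 lower of 8, at 978 to 1013 CPM in RANKL+CSRM617 and 974 to 992 CPM in RANKL II. All 7 enterocyte markers were higher, at 9223 to 9546 CPM in RANKL+CSRM617 and 3843 to 3915 CPM in RANKL II. Paneth cell markers gave 5 higher and 1 lower of 6, at 875 to 899 CPM in RANKL+CSRM617 and 559 to 574 CPM in RANKL II. Goblet cell markers gave 4 higher and 2 lower of 6, at 3760.3 to 3936 CPM in RANKL+CSRM617 and 2769 to 2846 CPM in RANKL II, and all 4 tuft cell markers tested were higher, at 98.2 to 102 CPM in RANKL+CSRM617 and 63.7 to 67.0 CPM in RANKL II. Of 3 enteroendocrine markers tested 2 were higher and none lower. The list of 6 summed to 42.2 to 51.5 CPM in RANKL+CSRM617 and 19.0 to 20.2 CPM in RANKL II. With GC offsets stem cell markers gave 1 higher and 2 lower, proliferation markers 6 higher and none lower, and M cell markers 4 higher and 3 lower. The counts of the other marker lists named here did not change with offsets. The part of these cell types in the result was not tested.

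With both comparisons side by side, 10 genes were called lower with RANKL and higher with CSRM617. They were Polr1a, Ubtf, Tcof1, Nop56, Nolc1, Nop14, Rrp9, Rrp12, Nob1 and Nop2. Over all genes tested, 28.0% were lower with RANKL and 35.2% higher with CSRM617, or 25.9% and 32.8% with GC offsets. How many of all genes had both calls was not counted, so the 10 cannot be set against a share. The comparisons share no library, but their trends on GC content ran in opposite directions, and these 10 transcripts are 48.3% to 59.8% GC. With GC offsets in both, 9 genes were lower with RANKL and higher with CSRM617, of which 6, Polr1a, Ubtf, Tcof1, Nop56, Nop14 and Nop2, were among the 10. Lower calls in both comparisons were made for Myc, Tsr1 and Wdr12, the last 2 of which are named after their values were seen, and Myc alone of the 3 was also lower in both with offsets. Polr1b, Npm1 and Utp20 were lower in both only with offsets. Wdr75 was higher with RANKL and lower with CSRM617. Polr1c, Polr1e, Nhp2 and Heatr1 were called in neither.

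The 2 sets of RANKL organoids, which were scaled in separate tables and so were not tested, were set side by side. The ratio of RANKL II to RANKL had a median of 0.98, and it lay between 0.8 and 1.25 for 34 of the 40 genes. Across the 40 genes the ratio had a Spearman correlation of -0.60 with transcript GC content. The ratio was 0.459 for Tcof1, which averaged 36.3 CPM in RANKL II and 79.2 CPM in RANKL, and 0.647 for Myc, at 138 CPM in RANKL II and 213 CPM in RANKL. The other genes outside that range were Gar1 (0.645), Rrp1 (0.773), Nolc1 (0.775) and Pes1 (1.26), named after their values were seen. Tcof1 averaged 79.8 CPM in RANKL+CSRM617, close to its level in the first RANKL set.

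Other genes of the pathway, from lists chosen with the 40, gave the wider picture. With RANKL, 24 of 50 further large-subunit assembly genes were lower and 6 higher, 15 of 41 further small-subunit genes lower and 4 higher, 4 of 14 further RNA polymerase I genes lower and 1 higher, 4 of 10 snoRNP assembly genes lower and none higher, and 5 of 13 exosome genes lower and 2 higher. The median log2 changes of these 5 lists were -0.22, -0.079, -0.14, -0.22 and -0.15 in that order, beside 0.0028 over all genes. Of all genes tested, 28.0% were lower and 28.7% higher, or 25.9% and 27.4% with GC offsets. With GC offsets the snoRNP assembly list gave 2 lower of 10, the further RNA polymerase I genes 4 lower and none higher, and the medians were -0.15, -0.13, -0.083, -0.19 and -0.17 in the same order. Among these, Nop53, a late 60S factor, averaged 127 ± 3.54 CPM in RANKL and 272 ± 40.8 CPM in ENR control (log2 change -1.10), Nle1, a 60S assembly factor, gave -1.11, Nat10, which acetylates 18S rRNA, -0.87, and Cd3eap, a subunit of RNA polymerase I, -1.07. Dcaf13, a processome gene, went the other way at 0.77, as did Efl1, a GTPase of 60S maturation, at 0.62. These 6 calls held in all 16 alternatives.

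With CSRM617, 25 of the 50 large-subunit genes were higher and 12 lower with a median of 0.16, among them the helicase gene Ddx54 at 0.88 (0.42 with GC offsets, given in parentheses from here on) and Nop53 at 0.57 (offsets 0.48). The 41 small-subunit genes gave 13 higher and 17 lower (median -0.013, or 13 and 11 at a median of 0.00670 under GC offsets), among them Wdr46 at 0.74 (offsets 0.33) and Wdr36 at -0.70 (offsets -0.30). The 14 RNA polymerase I genes gave 5 higher and 5 lower (median 0.11, or 3 and 3 at a median of -0.11 under GC offsets), with Ttf1, the termination factor, at 0.44 (offsets 0.55) and the subunit gene Twistnb at -1.001 (offsets -0.31). The exosome gave 2 higher and 9 lower of 13 (median -0.28, or 3 and 4 at a median of -0.11 under GC offsets), with Exosc10, a catalytic subunit, at 0.50 (offsets 0.30), and snoRNP assembly 3 higher and 4 lower of 10 (median -0.19), with Pih1d1 at 0.92 (offsets 0.47) and Nop10 at -1.10 (offsets -0.94). Of all genes tested, 35.2% were higher and 36.2% lower with CSRM617, or 32.8% and 30.3% with GC offsets.

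**Figure D4:**
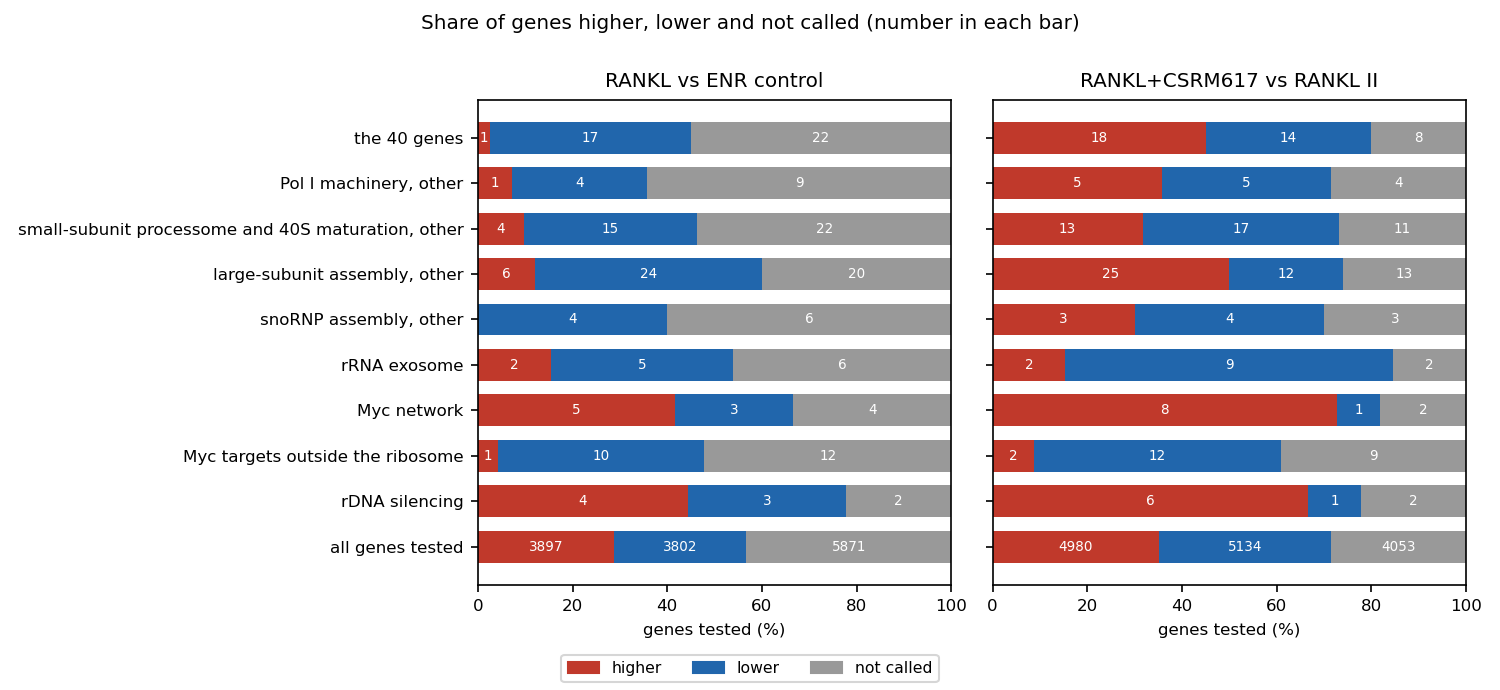
Share of the genes tested that were higher, lower or not called (adjusted p under 0.05) for the 40 genes, 8 lists of related genes and all genes tested, with numbers of genes in the bars; left, RANKL against ENR control, and right, RANKL+CSRM617 against RANKL II. With RANKL the 40 genes hold 17 lower and 1 higher beside 3802 and 3897 of all 13570 genes, and the large-subunit list 24 lower and 6 higher of 50.

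Relatives and partners of Myc moved in both directions. In the Myc network list 5 of 12 genes were higher and 3 lower with RANKL (median 0.088, or 6 and 3 at a median of 0.16 under GC offsets). Mycn, a Myc family member, averaged 21.6 ± 1.01 CPM in RANKL and 1.88 ± 0.805 CPM in ENR control (log2 change 3.56, SE 0.213, edgeR adjusted p = 1.26e-09). Mycl, a further family member, averaged 141 ± 16.2 CPM in RANKL and 50.4 ± 4.46 CPM in ENR control. Mxd1, which competes with Myc for MAX as a repressor, averaged 132 ± 25.5 CPM in RANKL and 24.2 ± 3.65 CPM in ENR control (SD, n = 3 each). For Myc itself the means were 213 ± 7.86 CPM in RANKL and 308 ± 23.8 CPM in ENR control. Mlxip, which encodes the glucose-responsive MondoA, fell by 2.19-fold. With CSRM617 the list gave 8 higher and 1 lower of 11 (median 0.24, or 6 and 2 at a median of 0.17 under GC offsets), with Mxd1 at 1.02 (offsets 0.96), Mlxipl, which encodes the carbohydrate response factor ChREBP, at 0.82 (offsets 0.45) and Mlxip at 0.38 (offsets 0.17). Mga, the 1 lower gene at -0.35, was higher with GC offsets at 0.17.

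Known Myc targets outside the ribosome had more lower than higher calls in both comparisons. Of all genes tested, 28.0% were lower and 28.7% higher with RANKL. With CSRM617 the shares of all genes were 36.2% lower and 35.2% higher, or 30.3% and 32.8% with GC offsets. With RANKL 10 of 23 were lower and 1 higher with a median of -0.11, among them Impdh2, of guanine nucleotide synthesis, at -0.78, Ccnd2, a cyclin, at -0.71 and Cad, of pyrimidine synthesis, at -0.55 (offsets -0.30). Tfrc, the transferrin receptor, was the higher one at 1.09 (offsets 0.66). With CSRM617 12 of 23 were lower and 2 higher with a median of -0.19, or 20 and 2 with GC offsets, among them Paics, of purine synthesis, at -1.29 (offsets -1.23), Hspe1, a mitochondrial chaperonin, at -0.997 (offsets -1.13), Apex1, of DNA repair, at -0.57 (offsets -0.68) and Ccnd2 at -0.34 (offsets -0.21). Genes of ribosomal DNA silencing gave 4 higher and 3 lower of 9 with RANKL (median 0.16, and -0.066 with GC offsets) and 6 higher and 1 lower with CSRM617 (median 0.52, and 0.28 with GC offsets). Dnmt1, the maintenance DNA methyltransferase, was at -0.999 with RANKL and 0.81 (offsets 0.56) with CSRM617, and Ehmt2, a histone H3K9 methyltransferase, at -0.65 (offsets -0.30) and 0.80 (offsets 0.27). Baz2a, which encodes the large subunit of the silencing complex NoRC, was at 0.52 (offsets 0.39) with CSRM617.

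Genes with the E-box CACGTG in their promoter window were called in both directions with CSRM617. Of all genes tested, 28.0% were lower and 28.7% higher with RANKL, or 25.9% and 27.4% with GC offsets. With CSRM617 the shares of all genes were 36.2% lower and 35.2% higher, or 30.3% and 32.8% with GC offsets. With RANKL, 3 of the 8 genes with it were lower and none higher, and 10 of the 26 without it were lower and 1 higher. With GC offsets 5 of the 8 and 10 of the 26 were lower with RANKL, and none was higher. With CSRM617, 5 of the 8 were lower and 2 higher, against 7 lower and 13 higher of the 26. With GC offsets 3 of the 8 were lower and 3 higher with CSRM617, as Wdr43 turned to higher and Tsr1 was not called, against 8 lower and 13 higher of the 26. Rrn3 and Imp4, whose sequences are printed above, were lower with CSRM617, and Nop2 was higher.

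Within 7 of the 40 genes lie 21 genes of snoRNAs, the guide RNAs of the particles above. The 10 snoRNA genes that overlap an annotated exon had 0 counts in every library, and the others had 0 to 60 counts summed over 3 libraries. Reads that overlap 2 genes may not have been counted, so the 0 counts do not show that these snoRNAs were absent. The most counts fell on Snord53, inside Wdr43 on chromosome 17 (71640879 to 71640956), with 35 in RANKL and 18 in ENR control, and 42 in RANKL+CSRM617 and 60 in RANKL II. These counts were not tested. For 15 of the 40 genes, among them Nop56, Polr1a and Dkc1, an exon overlaps that of a gene on the opposite strand, and since no strand setting is stated for the counting, reads of the 2 genes may not have been separated.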

How the data were processed

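Per the labels' protocols, libraries were made from 1 µg of total RNA with a ribosomal RNA depletion kit and sequenced in pairs of 42 bp. For each comparison the authors deposited a table of raw counts per gene symbol. Per the submitters' processing notes these involve STAR, HTSeq 0.13.5 and DESeq2 1.34.0 on mm10 (GRCm38). No annotation or strand setting is given in the sources. The authors also deposited normalized values, which are on a log2 scale and were used in 1 alternative.

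Counts were tested with edgeR 4.0.16 in R 4.3.3 (quasi-likelihood, robust, TMM factors, filterByExpr defaults, no covariate) on the 6 libraries of each table, adjusted by Benjamini-Hochberg over 13570 or 14167 genes, with no unused sample column. The tables were normalized separately and tested separately. The SE is the unshrunken log2 change over the square root of F. The script was tested on simulated counts with known changes. It recovered 92.31% of the changed genes in the RANKL setting and 94.85% in the CSRM617 setting. Of its calls, 7.69% and 4.17% were false, in that order. The precision of a level follows from counts of 64 or more per gene and library. The p-values measure the spread between libraries of 1 line, which the series design describes as independent differentiation experiments. In the CSRM617 comparison that spread, as a biological coefficient of variation, was only 2.87%.

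The alternatives were RLE and upper-quartile factors, DESeq2 1.42.0, no filter, a stricter filter (CPM of 5 or more in 3 or more libraries), limma 3.58.1 on the deposited log2 values, GC offsets, the replicate number as a block without and with GC offsets, removal of Gm26917, Gm42418 and mitochondrial genes, and each library left out, 16 per comparison. GC offsets were loess fits (span 0.5) of each library's log2 CPM deviation on the GC content of the longest coding transcript of GENCODE. A pseudocount planned for the normalized values was dropped, since they were already logged.

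The 40 genes, the lists and the naming rule were chosen with earlier results of these data known. The rule names 10 genes in every library (Myc, Ncl, Npm1, Fbl, Nop56, Dkc1, Polr1a, Polr1b, Ubtf and Rrn3), the 5 largest rises and falls per comparison, and genes called in opposite directions or in neither; others stand as counts and single changes. Promoter sequences are from RefSeq (GRCm38.p6).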

Additional observations from a re-analysis of the deposited data

How the results depend on the processing

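The direction and the side of the threshold were kept in all 16 alternatives by 11 of the 17 lower calls with RANKL, and by 16 of 18 higher and 9 of 14 lower calls with CSRM617. The counts of members lower with RANKL (13 to 19) and of members higher (17 to 19) and lower (13 to 15) with CSRM617 stayed within 1.5 times their values. The count of members higher with RANKL, 1, was 0 by DESeq2 and with GC offsets, and 0 to 3 with 1 library left out. With upper-quartile factors the median of the members with CSRM617 was -0.00110. Turned signs concerned genes not called in the main test, except Nop58, Nob1, Wdr43 and Wdr12 with CSRM617 under GC offsets. The cause was not tested. The 40 genes had at least 64 counts in every library, which sets the counting precision of their levels.

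With RANKL, log2 changes turned sign with upper-quartile factors (Npm1 -0.013, Gnl3 -0.015 and Ltv1 -0.014), with no filter (Gnl3 -0.000412) and with GC offsets (Polr1c 0.015, Nhp2 0.073, Npm1 -0.25, Gnl3 -0.13, Ltv1 -0.084, Imp3 0.054, Mphosph10 -0.17, Bop1 0.23 and Rrp1 0.046). With the replicate block and GC offsets they were Polr1c 0.015, Nhp2 0.082, Npm1 -0.25, Gnl3 -0.13, Ltv1 -0.091, Imp3 0.065, Mphosph10 -0.18, Bop1 0.23 and Rrp1 0.042. With 1 library left out, the changes ran over Polr1e -0.033 to 0.13, Rrn3 -0.10 to 0.037, Npm1 -0.094 to 0.16, Gnl3 -0.081 to 0.058, Ltv1 -0.053 to 0.048, Bysl -0.012 to 0.17, Imp4 -0.079 to 0.023 and Bop1 -0.095 to 0.00952.

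With CSRM617, Polr1c turned to 0.00204 with RLE factors, 0.00822 by DESeq2 and 0.00777 by limma on the deposited values, and Pes1 to -0.011 with upper-quartile factors. With GC offsets the turned values were Polr1e -0.016, Nop58 0.020, Nhp2 -0.20, Nob1 -0.026, Heatr1 0.097, Wdr43 0.17, Wdr12 0.37 and Pes1 -0.030, and with the replicate block and GC offsets Polr1e -0.019, Nop58 0.017, Nhp2 -0.21, Nob1 -0.024, Heatr1 0.10, Wdr43 0.17, Wdr12 0.37 and Pes1 -0.033. With 1 library left out, the changes ran over Polr1c -0.053 to 0.088, Nhp2 -0.00853 to 0.12, Heatr1 -0.042 to 0.024 and Pes1 -0.00145 to 0.094.

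The labels give the same experiment numbers to both groups of a comparison, but deviations of same-numbered libraries correlated at only -0.0069 to 0.057 and -0.011 to 0.013, and not every library correlated best with its own number, so the numbers were not taken to pair the samples. The replicate block left 16 genes lower and 1 higher with RANKL, ending the call of Fbl (-0.26, edgeR adjusted p = 0.0515), and changed no call with CSRM617, at 18 higher and 14 lower.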
